A study of Mus musculus with 6 samples.

Results

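The genes described here encode the inhibitors of the cyclin-dependent kinases (CDKs) together with SKP2 and CKS1, which direct the destruction of the inhibitor p27. They were chosen by name, as the probe sets whose single gene symbol in the platform annotation was Cdkn1a, Cdkn1b, Cdkn1c, Cdkn2a, Cdkn2b, Cdkn2c, Cdkn2d, Skp2 or Cks1b. All 9 genes were on the array, of 18193 genes with a probe set of their own, and they were read by 17 probe sets, of 45101 in all and 34945 that carried 1 gene symbol. Skp2 had 6 of the 17, Cdkn1a, Cdkn1b and Cks1b had 2 each, and the other genes had 1 each.

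The leukaemia was T-ALL, acute lymphoblastic leukaemia of mouse T cells, induced by the activated receptor Notch1ΔE in cells whose GFP reports the MYC protein. The groups were 3 arrays of MycGFP positive and 3 arrays of MycGFP negative cells. Both groups were CD25+ splenocytes carrying Notch1ΔE and mycGFP, taken at 4 weeks after transplantation into congenic recipients, and both were labelled C57BL/6, 12 weeks old. Cells were sorted by mCherry and GFP, and the design names 3 independent leukaemias. The comparison asks how transcripts differ between leukaemia cells sorted as positive and as negative for the GFP that reports MYC protein. Each array measured RNA of a sorted population, so fewer cells expressing a gene and less RNA per cell cannot be told apart.

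Cells enter S phase when cyclin D with CDK4 or CDK6, and then cyclin E or A with CDK2, are active. The CIP/KIP proteins p21 (Cdkn1a), p27 (Cdkn1b) and p57 (Cdkn1c) bind cyclin-CDK complexes, and the INK4 proteins p16 (Cdkn2a), p15 (Cdkn2b), p18 (Cdkn2c) and p19 (Cdkn2d) bind CDK4 and CDK6. SKP2 is the F-box subunit of an SCF ubiquitin ligase that recognises phosphorylated p27 with the help of CKS1 (Cks1b), so that p27 is degraded as cells leave G1. In T cells p27 is known as a main brake on the entry of resting cells into the cycle. In T-ALL the Cdkn2a locus is known for frequent deletion, and MYC is known to counter p27 in several cell types. Protein amount and phosphorylation, through which much of this control works, were not measured here.

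Upstream sequences are shown for Skp2 and Cks1b, the ligase subunits, and for Cdkn1b, which encodes a substrate. These sequences are given because the transcripts of Skp2 and Cdkn1b differed between the groups in opposite directions. Each is the 250 bases before an annotated start, from RefSeq in build GRCm38.p6, written 5′ to 3′ in the direction of the gene. Skp2 has 2 annotated starts in that table and both are given. Capitals mark any match, on either strand, to the cell cycle genes homology region TTTGAA (CHR), to CCAAT, to the E-box CACGTG, to the FOXO core TGTTTAC or to the E2F forms TTTCCCGC, TTTCGCGC, TTTGCCGC and TTTGGCGC.
Skp2, inner start, chr15:9140455-9140704, minus strand: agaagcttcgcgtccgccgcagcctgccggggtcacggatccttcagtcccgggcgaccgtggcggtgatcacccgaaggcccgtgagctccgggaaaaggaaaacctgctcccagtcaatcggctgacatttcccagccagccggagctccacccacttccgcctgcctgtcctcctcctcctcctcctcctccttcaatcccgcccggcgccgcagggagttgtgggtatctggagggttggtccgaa
Skp2, outer start, chr15:9155426-9155675, minus strand: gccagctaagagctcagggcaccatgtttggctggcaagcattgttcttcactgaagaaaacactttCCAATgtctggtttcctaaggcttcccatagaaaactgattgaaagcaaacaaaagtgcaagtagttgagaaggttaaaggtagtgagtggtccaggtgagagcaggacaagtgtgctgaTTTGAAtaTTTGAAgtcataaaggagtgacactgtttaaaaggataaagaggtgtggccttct
Cks1b, chr3:89418292-89418541, minus strand: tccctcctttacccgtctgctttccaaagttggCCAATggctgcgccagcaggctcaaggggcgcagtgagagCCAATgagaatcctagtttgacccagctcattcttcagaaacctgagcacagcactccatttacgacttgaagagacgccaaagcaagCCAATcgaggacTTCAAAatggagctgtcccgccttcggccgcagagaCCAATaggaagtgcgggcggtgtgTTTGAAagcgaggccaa
Cdkn1b, chr6:134920151-134920400, plus strand: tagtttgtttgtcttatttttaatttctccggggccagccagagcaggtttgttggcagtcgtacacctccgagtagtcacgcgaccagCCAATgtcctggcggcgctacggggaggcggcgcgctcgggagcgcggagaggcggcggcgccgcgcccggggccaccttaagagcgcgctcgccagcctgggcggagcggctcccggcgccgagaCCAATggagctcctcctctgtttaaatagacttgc

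The Cks1b window held CCAAT 4 times and the CHR 2 times, the nearer CHR lying 17 to 12 bases before the start and the nearest CCAAT 41 to 37 bases before it. The outer Skp2 window held the CHR 2 times and CCAAT once, while the inner one held none of the motifs. The Cdkn1b window held CCAAT 2 times and no other motif. Windows were found for 8 of the 9 genes, 12 windows in all. Of these, 3 held the CHR, against 16% of 32851 windows of all genes, and 4 held CCAAT, against 33.8%. An E2F form was in 1 window, at the outer start of Cdkn2a, against 1.86% of all. No window of these genes held the E-box or the FOXO core, which 6.02% and 3.17% of all windows held. The motifs do not overlap one another, and a match describes letters only.

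The array medians lay between 30.5 and 32.7, and no detection calls were used, so intensities at or below that level may be background. Myc, the gene whose protein was sorted on, had intensities of 2628, 3390 and 2274 on positive arrays 1, 2 and 3, against 801, 1135 and 1303 on the negative arrays (adjusted p = 0.0299, limma). Its call was lost without negative array 2 or any 1 positive array, at adjusted p of 0.0725 to 0.0989. A probe set counts as called where its adjusted p was under 0.05, and by that measure 4.76% of all those tested rose and 2.16% fell in MycGFP positive cells. Without positive array 2, limma called no probe set at all (smallest adjusted p = 0.0585), while 6388 had an unadjusted p under 0.05. The defining T cell genes Cd3e, Cd3g, Cd3d, Thy1, Ptcra and Il2ra were bright on all 6 arrays, with summed intensities of 43212 to 53675 on positive and 53251 to 58083 on negative arrays. None of the 6 was called. Il2ra encodes CD25, for which both groups were positive by their labels, so its brightness gives no separate evidence of cell type. Markers of other splenic cells were also not called, and their summed intensities overlapped between the groups for all lists but stroma and endothelium, at 249.5 to 353.9 on positive and 390.1 to 928.6 on negative arrays. That difference was carried by Pecam1 and, on negative array 1, by Col1a1, while Cdh5 and Col3a1 lay under the array medians throughout. Some single markers of other splenic cells lay far above the array medians. The B cell marker Ighm had 1626 to 3266 on positive and 1353 to 2014 on negative arrays. The myeloid marker Lyz2 reached 850.3 on negative array 2, the B cell marker Cd79b 645.2 on negative array 3 and the NK marker Nkg7 378.4 on positive array 1. The part of these cells in the results was not tested.

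**Figure D1:**
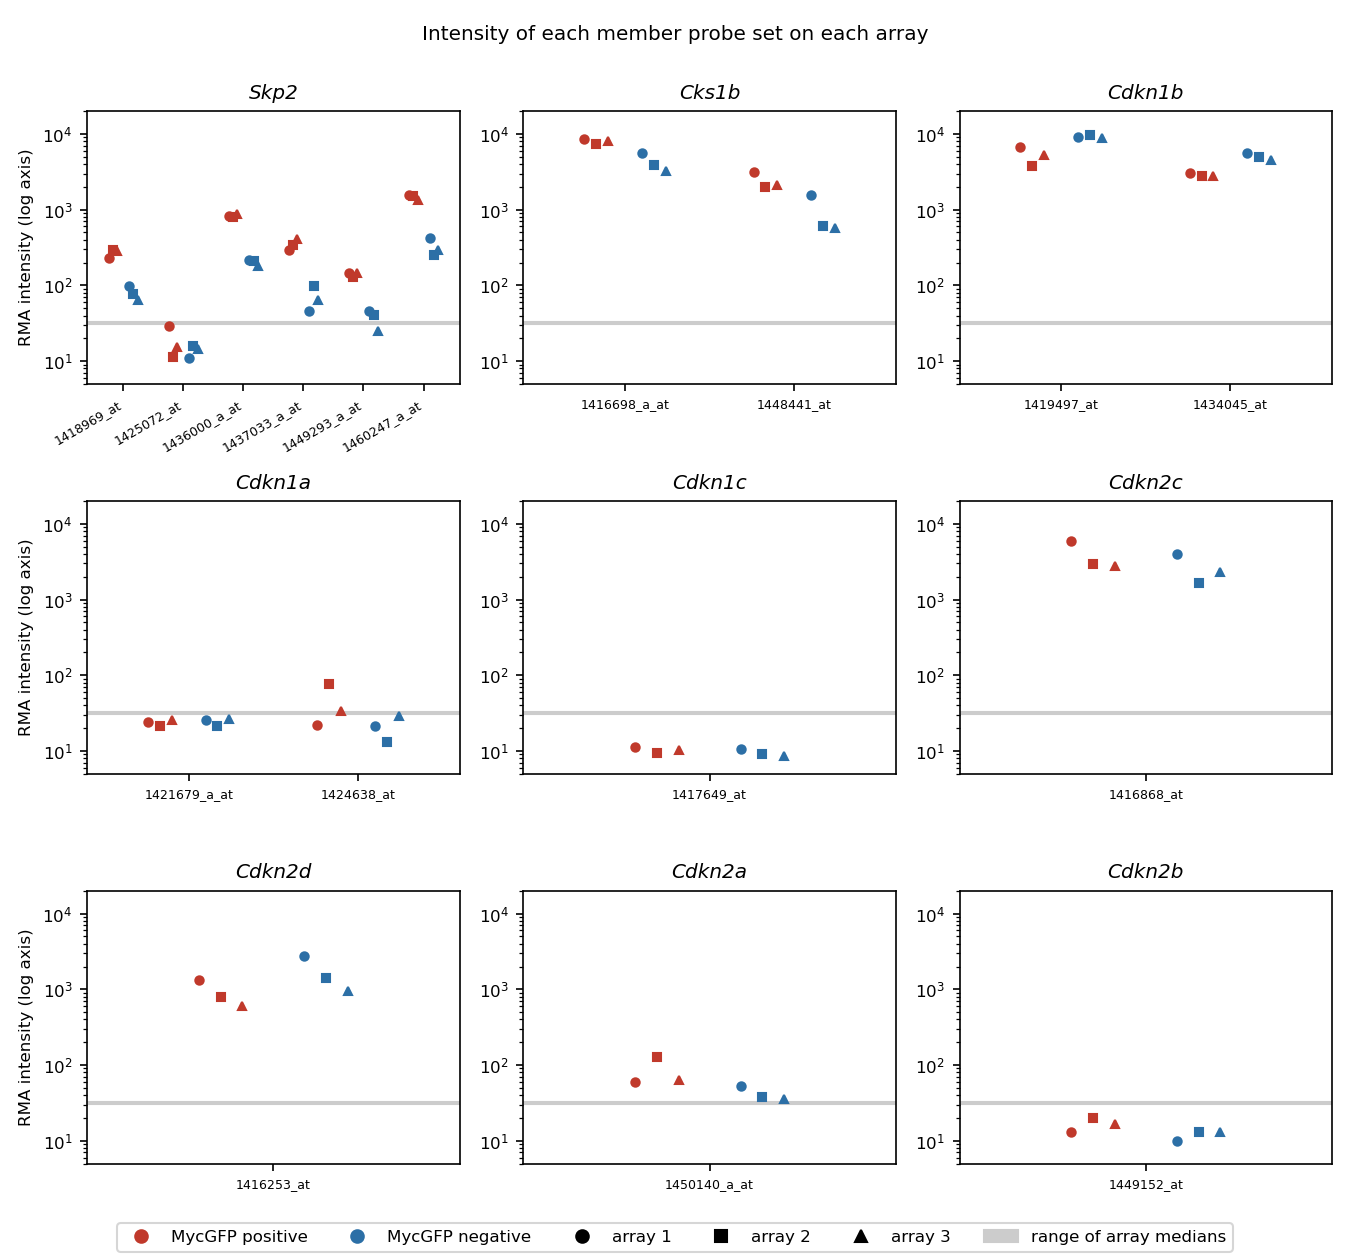
RMA intensity (log axis) of the 17 probe sets on each array, MycGFP positive in red left of MycGFP negative in blue, with symbols for the array number and a grey band for the range of array medians, 30.5 to 32.7. For 5 of 6 Skp2 probe sets all red points lie above all blue ones, for both Cdkn1b probe sets they lie below, and Cdkn1c and Cdkn2b lie under the band on every array.

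Across the 17 probe sets, 5 rose and 1 fell in MycGFP positive cells, against 4.76% and 2.16% of all probe sets, and 11 were not called. All 5 that rose belonged to Skp2, and the one that fell belonged to Cdkn1b, so no INK4 gene and no other CIP/KIP gene was called. Because probe sets of a gene share its transcripts, these are calls on 2 genes. With the array number as a block, the counts were 6 higher and 2 lower, since a Cks1b probe set and the Cdkn2d probe set then passed. The median log2 difference was 0.92 over the 17 probe sets and 0.01 over all 34945. By kind it was 1.86 over the 8 probe sets of Skp2 and Cks1b, -0.04 over the 5 of CIP/KIP genes and 0.51 over the 4 of INK4 genes. The 0.92 therefore does not describe a shift shared by all 9 genes. In 8 of the 17 all positive arrays lay above all negative ones, and in 2 below, against 16.6% and 12.0% of all probe sets. The 8 were 5 of Skp2, 2 of Cks1b and 1 of Cdkn2a, and the 2 were those of Cdkn1b. Of the 17, 13 lay above the array median on at least 1 array and the other 4 lay below it on all 6.

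Skp2 rose in MycGFP positive cells by 3.42-fold to 5.16-fold on its 5 called probe sets. The brightest of them, 1460247_a_at, had intensities of 1577, 1515 and 1352 on positive arrays 1, 2 and 3, against 417.5, 252.2 and 297.4 on the negative arrays. The lowest positive array thus stood far above the highest negative one, and the negative arrays differed more among themselves than the positive arrays did. The fold was 4.69, with a 95% interval of 3.28 to 6.70 (log2 difference 2.23, SE 0.21, adjusted p = 0.0107 in limma). The probe set 1436000_a_at, at 816.7, 796.8 and 887.3 on positive and 219.4, 211.1 and 182.7 on negative arrays, gave 2.03 with an SE of 0.14 (adjusted p = 0.0100). Here both groups were tight, and the ranges within them, 0.16 and 0.26 on the log2 scale, were small beside the difference.

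The other called probe sets of Skp2 were dimmer. The probe set 1437033_a_at had 289.5, 340.1 and 415.3 on positive arrays against 46.3, 99.4 and 64.5 on negative arrays, the largest fold of the gene at 5.16 (log2 difference 2.37, SE 0.30, adjusted p = 0.0155). For 1418969_at the values were 232.7, 293.3 and 281.3 on positive and 97.0, 76.4 and 65.0 on negative arrays, a fold of 3.42 (1.77, SE 0.19, adjusted p = 0.0126). For 1449293_a_at they were 145.3, 129.2 and 144.0 against 46.3, 40.6 and 25.3, a fold of 3.85 (1.94, SE 0.25, adjusted p = 0.0152), and negative array 3 lay under its array median there. The 95% intervals of the 5 folds overlapped, the lowest bound being 2.46 and the highest 8.61. The remaining probe set, 1425072_at, lay under the array median on all 6 arrays, at 29.2, 11.5 and 15.5 on positive and 10.9, 15.7 and 14.4 on negative arrays. Its groups overlapped, the log2 difference was 0.36 (95% interval -0.52 to 1.23, adjusted p = 0.649), and without positive array 1 it was -0.02.

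The Skp2 calls depended on which array was left out. All 5 were kept without negative array 1 or without negative array 3. Without positive array 2 all 5 were lost, at adjusted p of 0.0585 to 0.0670 and log2 differences of 1.71 to 2.38, in a fit that called nothing. Without positive array 3, 1418969_at, 1437033_a_at and 1449293_a_at were lost (adjusted p = 0.0534, 0.0603 and 0.0605), and 1449293_a_at was also lost without negative array 2 (0.0518) or positive array 1 (0.0535). With the array number as a block all 5 passed, at adjusted p of 0.0264 to 0.0296.

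Cks1b, whose product joins SKP2 to phosphorylated p27, was higher on every positive than on every negative array by both probe sets, but neither passed the test. The brighter, 1416698_a_at, had 8669, 7301 and 8052 on positive arrays 1, 2 and 3, against 5626, 3939 and 3278 on the negative arrays, a log2 difference of 0.94 (SE 0.22, adjusted p = 0.0613). The dimmer, 1448441_at, had 3173, 2012 and 2147 on positive against 1543, 610.9 and 572.5 on negative arrays, a log2 difference of 1.56 (SE 0.42, adjusted p = 0.0842). Negative array 1 stood well above the other negative arrays on both probe sets, and positive array 1 was the highest positive one. Without negative array 1 both passed, with log2 differences of 1.15 and 2.02 (adjusted p = 0.0272 and 0.0200). With the array number as a block 1448441_at passed (adjusted p = 0.0336) and 1416698_a_at did not (0.0567). The probe set 1416698_a_at also passed without dim probe sets (0.0490), with weights for the arrays (0.0425) and with a robust, trended variance (0.0436). The 95% intervals of the folds were 1.32 to 2.79 and 1.45 to 5.96.

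Among the CIP/KIP genes Cdkn1b, encoding p27, was lower in MycGFP positive cells. The probe set 1434045_at had 3018, 2794 and 2793 on positive arrays 1, 2 and 3, against 5689, 5038 and 4547 on the negative arrays. The positive arrays nearly coincided and all lay well under the lowest negative one. It fell 1.77-fold, with a 95% interval of 1.40 to 2.24 (log2 difference -0.82, SE 0.14, limma, adjusted p = 0.0271). The brighter probe set, 1419497_at, had 6656, 3829 and 5356 on positive against 9146, 9757 and 8871 on negative arrays. Its log2 difference of -0.85 was of like size, but the positive arrays were spread more widely (SE 0.22, adjusted p = 0.0772), so it was not called.

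The Cdkn1b call was lost without negative array 1 (adjusted p = 0.0511), negative array 2 (0.0851), positive array 1 (0.0688), positive array 2 (0.1005) or positive array 3 (0.0939), with log2 differences of -0.86 to -0.74. With the array number as a block 1434045_at stayed called (adjusted p = 0.0429) and 1419497_at uncalled (0.0967). Where each gene is represented by its probe set of highest mean, 1419497_at stands for Cdkn1b, so a count over genes holds no called inhibitor. Adjusted over the 18193 genes read this way, Skp2 was the only called gene of the 9, where 4.62% of all genes were called higher and 1.51% lower. Over both probe sets and the alternatives run, the log2 difference lay between -1.03 and -0.63.

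Cdkn1a and Cdkn1c, the other CIP/KIP genes, were at or near background. The Cdkn1a probe set 1421679_a_at lay under the array medians throughout, at 24.2, 21.3 and 25.3 on positive and 25.3, 21.4 and 26.1 on negative arrays. The arrays agreed closely across groups, and the log2 difference of -0.04 had a 95% interval of -0.40 to 0.32 (adjusted p = 0.921), with a sign that changed without positive array 2 or negative array 3. The other Cdkn1a probe set, 1424638_at, had 22.2, 76.4 and 33.4 on positive and 21.2, 13.3 and 28.9 on negative arrays. Positive array 2 stood apart, the groups overlapped, and the log2 difference of 0.93 (95% interval -0.30 to 2.16, adjusted p = 0.353) was 0.44 without that array. For Cdkn1c, an imprinted gene encoding p57, the intensities were 11.4, 9.40 and 10.2 on positive and 10.5, 9.03 and 8.65 on negative arrays, all under the medians. Its log2 difference was 0.14, with a 95% interval of -0.22 to 0.50.

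The INK4 genes fell into a bright and a dim pair, and none of the 4 was called. Cdkn2c, encoding p18, had 5869, 2971 and 2780 on positive arrays 1, 2 and 3, against 4050, 1630 and 2277 on the negative arrays. Negative array 1 lay above positive arrays 2 and 3, so the groups overlapped, and the log2 difference was 0.56 (95% interval -0.47 to 1.60, adjusted p = 0.525). Within each array number the positive array was the higher, by 0.54, 0.87 and 0.29 on the log2 scale. With the block its adjusted p was 0.134. Without positive array 1 the log2 difference was 0.22, without negative array 2 it was 0.26 and without negative array 1 it was 0.92.

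Cdkn2d, encoding the INK4 protein p19, differed the other way. It had 1314, 791.1 and 593.4 on positive arrays 1, 2 and 3, against 2716, 1419 and 948.2 on the negative arrays. The groups overlapped, but again both arrays numbered 1 were the highest of their group, and within numbers the positive array was the lower by log2 differences of -1.05, -0.84 and -0.68. The unpaired fit gave -0.86 with an SE of 0.46 (adjusted p = 0.345), and the fit with the array number as a block called it (adjusted p = 0.0459), so that its call rests on the pairing. Without negative array 1 the unpaired log2 difference was -0.45 and without positive array 3 it was -0.60. Cdkn2d and Cdkn2c, both inhibitors of CDK4 and CDK6, thus had differences of opposite sign in every array number.

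Cdkn2a and Cdkn2b, neighbours at one locus on chromosome 4, were dim. The single Cdkn2a probe set, whose annotation does not separate the p16 and ARF transcripts, had 60.4, 126.3 and 64.3 on positive against 52.4, 38.4 and 36.0 on negative arrays. All positive arrays lay above all negative ones, and all 6 lay above the array medians, with positive array 2 far above the rest. The log2 difference was 0.92 (SE 0.32, adjusted p = 0.159), 0.58 without positive array 2, and the block did not call it (0.172). Cdkn2b, encoding p15, lay under the medians at 12.9, 20.2 and 16.7 on positive and 9.85, 13.1 and 12.9 on negative arrays, which overlapped, with a log2 difference of 0.46 (95% interval -0.06 to 0.99, adjusted p = 0.278).

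**Figure D2:**
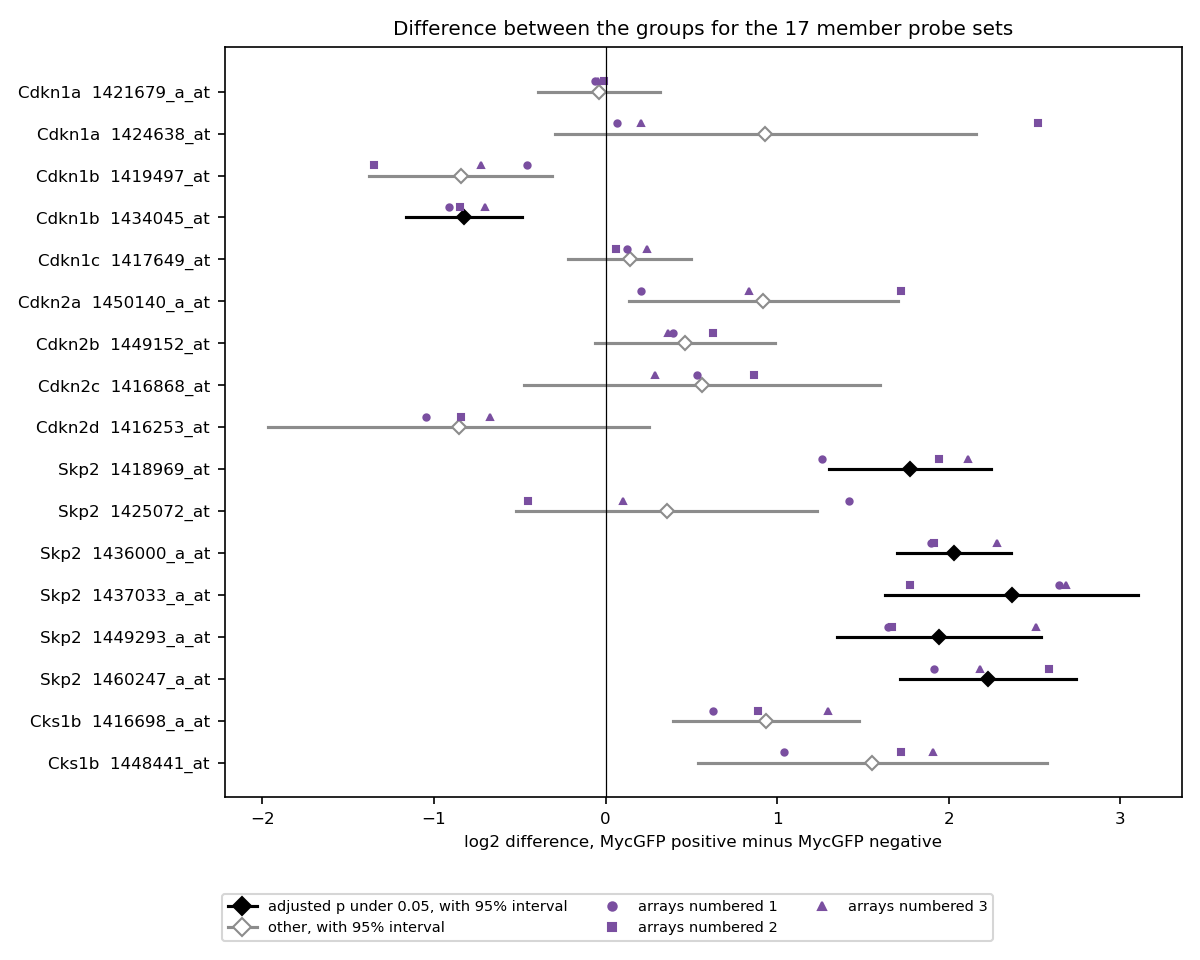
Log2 difference, MycGFP positive minus MycGFP negative, of the 17 probe sets (diamonds, filled where the adjusted p is under 0.05) with 95% intervals, and above each the difference between arrays of the same number (violet symbols). The filled diamonds are 5 Skp2 probe sets at 1.77 to 2.37 and the Cdkn1b probe set 1434045_at at -0.82; the violet symbols of Cdkn2d lie close together inside a wide interval.

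Genes of the cell cycle, which most of these proteins serve, differed between the groups and among the negative arrays. Of 23 S phase genes 15 rose and of 24 genes of G2 and mitosis 4 rose, against 4.88% of all genes read the same way, and the list medians were 2.35 and 2.29 on the log2 scale. All positive arrays lay above all negative ones for 21 of the 23 and for all 24 genes, against 16.6% of all probe sets. Mcm6 and Pold1, which unwind and copy DNA, rose 5.89-fold and 5.35-fold and the clamp loader gene Rfc3 rose 5.52-fold. The spindle checkpoint kinase gene Ttk, the cytokinesis gene Anln and the kinesin gene Kif23 rose 7.71-fold, 8.54-fold and 3.91-fold. The calls of Mcm6, Ttk and Anln were kept in 11 of 15 alternatives and that of Pold1 in 11 of 14. That of Rfc3 was kept in 12 of 15 and that of Kif23 in 9 of 15. Pold1 was read by a probe set of the kind the manufacturer marks as able to bind other sequences. The alternative without such probe sets therefore did not test its call. Centred on their mean over the 6 arrays, the genes of G2 and mitosis averaged 1.46, 1.04 and 0.92 on positive and 0.18, -1.37 and -2.23 on negative arrays 1, 2 and 3. The S phase genes averaged 1.21, 1.02 and 0.92 on positive and -0.26, -1.22 and -1.67 on negative arrays. Negative array 1, the highest negative array of both lists, was also the highest negative array of Cks1b, Cdkn2c, Cdkn2d, Cdkn1b by 1434045_at and Skp2 by 4 of its 5 called probe sets. The dim Cdkn2a and Cdkn1c were highest there too. Cdkn1b by its brighter probe set and Cdkn2b were highest on negative array 2, and Cdkn1a on negative array 3. Between the groups, Cdkn1b and Cdkn2d differed with the sign opposite to that of the lists. How many of all genes were highest on negative array 1 was not counted. The part of the share of cycling cells in the differences of these genes was not tested.

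**Figure D3:**
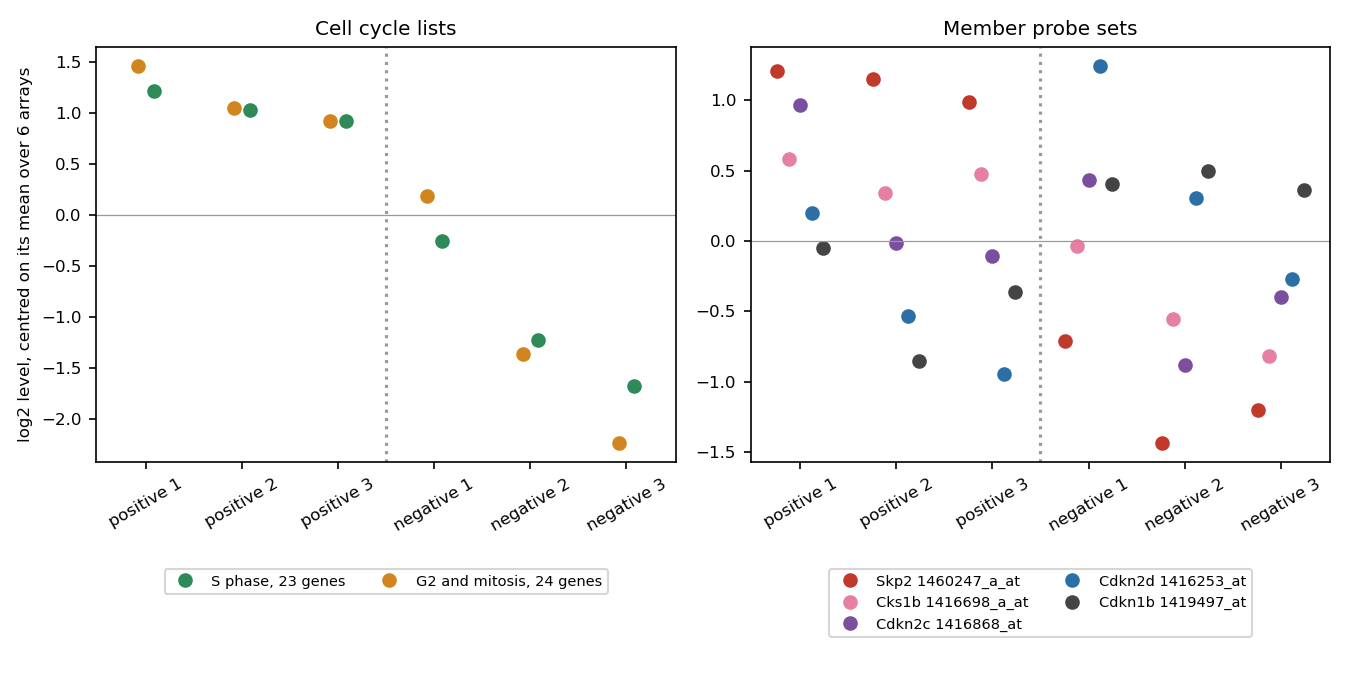
Log2 level on each array, centred on its mean over the 6 arrays, for 2 cell cycle lists (left) and for the highest-mean probe set of 5 genes (right), positive arrays left of the dotted line and negative arrays right of it. The cell cycle lists, Skp2 and Cks1b are higher on all positive arrays, Cdkn1b is lower on all of them, and Cdkn2c and Cdkn2d are highest, within each group, on the array numbered 1.

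Of 74 genes of the pathway beside the 9, in 7 lists, 72 were measured, each by its probe set of highest mean. In MycGFP positive cells 9 rose and 1 fell. Pcna, Cdk1 and Cdc20 also stood on the cell cycle lists above, so the rise of Pcna is counted in both places. Over all genes taken this way 4.88% rose and 1.63% fell, and the median log2 difference of the pathway genes was 0.19, beside 0.01 over all probe sets. With the array number as a block 11 rose and 2 fell, but of the 9 rises Cul1, Dtl and Cops5 were lost. Leaving out negative array 2 or positive array 1 left 2 rises and 0 falls, and leaving out negative array 3 left 3 and 1. Leaving out positive array 3 left 1 rise, and leaving out positive array 2 left none. Leaving out negative array 1 gave 11 rises and 1 fall.

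Among 10 partners of SKP2 in its ligase, the scaffold gene Cul1 alone was called, where 4.88% of all genes were called higher. Cul1 had 1487, 1248 and 1106 on positive against 673.4, 605.1 and 810.1 on negative arrays, 1.84-fold higher (adjusted p = 0.0425). Its call was lost with the block (adjusted p = 0.0710), without any 1 array (0.0505 to 0.127), with median centring (0.0621), quantile normalization (0.0562) and a trended variance (0.0544), and so was kept in 5 of 15 alternatives. The list median was 0.48. In 5 of the 10 all positive arrays lay above all negative ones and in 0 below, against 16.6% and 12.0% of all probe sets. Cks2 and Nae1 were among these 5, at 2.86-fold and 1.79-fold, but were not called by limma (adjusted p = 0.0583 and 0.0604). Among 14 genes for other routes of SKP2, CKS1, p27 or p21 turnover, 3 rose, with a list median of 0.59. Cops5, whose COP9 signalosome subunit is known to bind p27 and to remove NEDD8 from cullins, rose 2.14-fold (adjusted p = 0.0447). Dtl, the substrate receptor that targets p21 on chromatin-bound PCNA, rose 1.58-fold (0.0390), and Pcna itself rose 2.46-fold (0.0394). With the block the adjusted p of Cops5 was 0.0519 and that of Dtl 0.0635, so neither was called, while Pcna was (0.0410). Cops5 was called in 6, Dtl in 7 and Pcna in 9 of 15 alternatives. Leaving out any 1 array ended the Dtl call, and leaving out any but negative array 1 ended those of Cops5 and Pcna. Median centring ended the calls of Cops5 (0.0560) and Dtl (0.0511), quantile normalization that of Cops5 (0.0565), and log2(value + 16) those of Cops5 (0.0539) and Pcna (0.0509).

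Among 10 kinases and cyclins that the inhibitors bind, 2 rose, with a list median of 1.09. Cdk4, the main target of the INK4 proteins, had 3685, 3269 and 3122 on positive against 1423, 1447 and 1501 on negative arrays, 2.30-fold higher (log2 difference 1.20, SE 0.13, adjusted p = 0.0122). Its groups stood further apart than any spread within them, and its call was kept in 13 of 14 alternatives, all but that without positive array 2 (0.0589). Ccne1, encoding the cyclin that drives CDK2 at the start of S phase, rose 3.27-fold (adjusted p = 0.0443). That call was kept with the block (0.0369) but lost without any 1 array (0.0596 to 0.131), with median centring (0.0539), quantile normalization (0.0624) and log2(value + 16) (0.0668), and so held in 5 of 14 alternatives. Both were read by probe sets of the kind the manufacturer marks as able to bind other sequences, as was Foxm1. Without such probe sets 6 pathway genes rose and 1 fell. Cdk4, Ccne1 and Foxm1 were left out of that count and not read by another probe set, so it does not test their calls.

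Among 5 other proteins that SKP2 is known to target, the transcript of the licensing factor Cdt1 rose 3.83-fold (adjusted p = 0.0152) and that of Foxo1 fell 2.40-fold (0.0183). Foxo1 encodes a FOXO factor known to activate Cdkn1b in several cell types, and had 476.2, 442.6 and 548.3 on positive against 1069, 1050 and 1425 on negative arrays. Foxo1 also stood on the list of transcription factors of these genes, where of 17 measured 2 others rose. E2f1, known to drive S phase genes including Skp2, rose 5.16-fold, with 755.0, 512.0 and 616.3 on positive against 179.5, 98.2 and 98.2 on negative arrays (adjusted p = 0.0144). Foxm1, known to activate Skp2 and Cks1b, rose 3.15-fold (adjusted p = 0.0285). The list median was -0.19. The call was kept in 12 of 15 alternatives for Cdt1 and for E2f1, in 11 of 15 for Foxo1 and in 9 of 14 for Foxm1, the block included each time. All losses came from leaving out 1 array. Without positive array 2 or 3 all 4 calls were lost, without positive array 1 those of Cdt1, Foxo1 and Foxm1, without negative array 2 those of Foxo1, E2f1 and Foxm1, and without negative array 3 that of Foxm1.

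No gene of the 9 Polycomb repressors of the INK4 locus or of the 9 measured genes around ARF and MDM2 was called, with list medians of 0.22 and -0.21. On the first list the log2 differences farthest from 0 were those of the histone methyltransferase gene Ezh2 at 0.90 (adjusted p = 0.151) and Cbx8 at -0.74 (0.506). On the second they were those of the ubiquitin ligase gene Trip12 at -0.63 (0.163) and of Mdm4, a relative of Mdm2, at -0.38 (0.344).

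**Figure D4:**
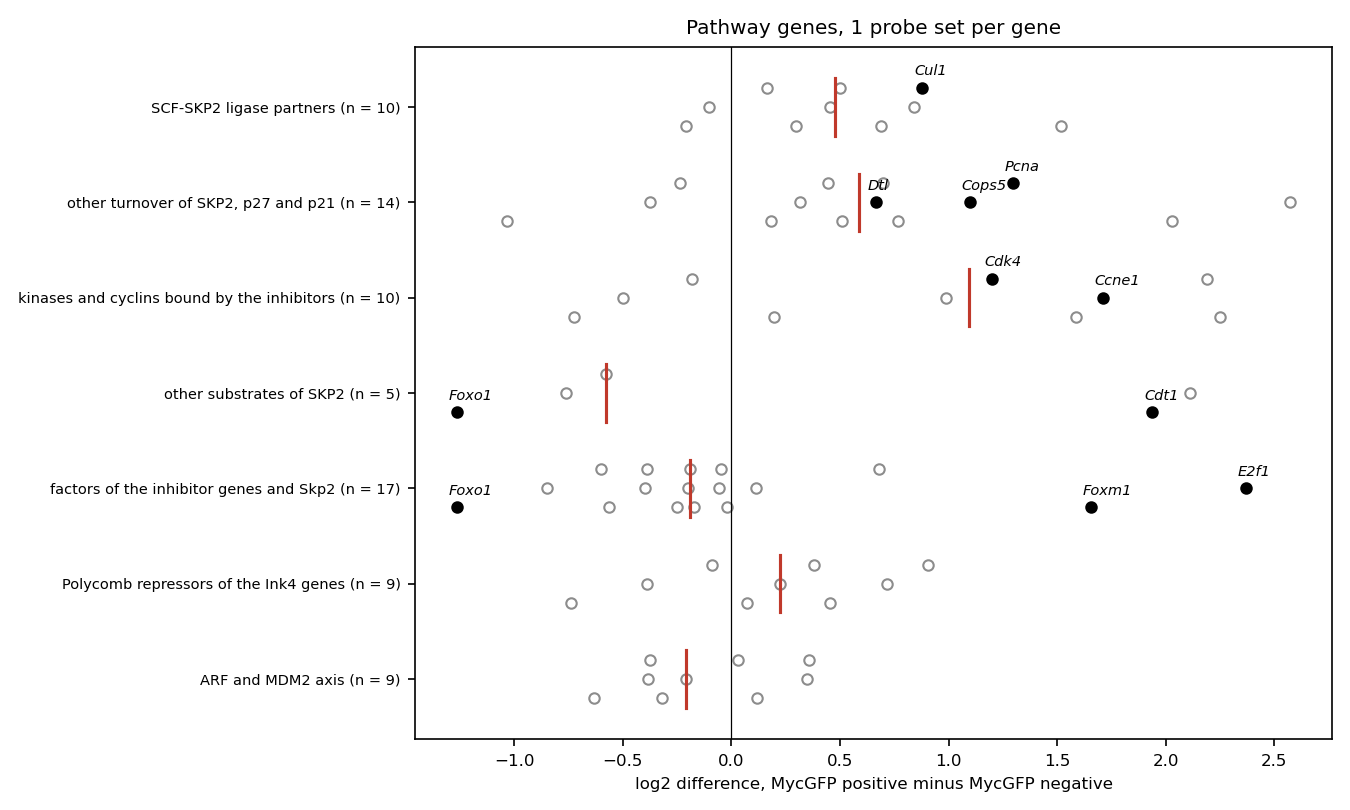
Log2 difference, MycGFP positive minus MycGFP negative, of the measured pathway genes in 7 lists, 1 point per gene (filled and named where the adjusted p is under 0.05) with the list median as a red line. Filled points lie right of 0 for 9 genes and left of 0 for Foxo1, which stands on 2 lists, and the highest list median is that of the kinases and cyclins, 1.09.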

How the data were processed

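RNA of 6 sorted populations, 5 ng each, was amplified and hybridised to Affymetrix mouse arrays, per the labels' protocols, and amplification from so little RNA adds noise to dim genes. The authors deposited intensities, on a linear scale by their range, and the submitters' processing notes name RMA. Since RMA gives all arrays a common scale, it hides any difference in RNA content between cells, and the number of arrays limits the precision. The ratio of 3' to 5' Gapdh control probe sets was 1.48 to 1.58 on positive and 1.58 to 1.89 on negative arrays, and that of actin was 1.72 to 1.85 on positive and 1.54 to 1.87 on negative arrays. Their part in the results was not tested.

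The log2 intensities were fitted by lmFit and eBayes (limma 3.58.1 under R 4.3.3, two-sided) over all 34945 non-control probe sets with 1 symbol in the platform annotation. Of these, 34741 were matched by Entrez identifier to the RefSeq table of GRCm38.p6 and took its symbol. P-values were adjusted over all 34945 by Benjamini-Hochberg, and called means an adjusted p under 0.05. Differences are MycGFP positive minus negative, folds their antilogs, and errors limma's moderated SE. Each listed gene was read by its probe set of highest mean log2 value. The code was tested on simulated data. Named were every probe set of the 9 genes, Myc, up to 5 called genes per pathway list by adjusted p (otherwise the 2 largest differences) and 3 per cell cycle list. The members and lists were chosen with earlier results of these data known.

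Deviations from the group means correlated across genes between same-numbered arrays, with r = 0.38, 0.21 and 0.39, and between others with r = -0.32 to -0.03, a contrast that is partly built in. The numbers may therefore pair the arrays. The main fit held no term for the array number, and only the alternative with a block assumed this pairing. No label ties an array to one of the leukaemias, so p-values measure the spread between these arrays, which may be technical in part. Alternatives tried were a block for the array number, leaving out each array, 1 probe set per gene, median centring, quantile normalization, a filter on dim probe sets, log2(value + 16), a trended and robust variance, array weights and leaving out cross-hybridising probe sets.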

Additional observations from a re-analysis of the deposited data

How the results depend on the processing

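Of 242 differences of the 17 probe sets recomputed under 15 alternatives, 220 kept their direction and side of the threshold, or had no call in either fit, 15 lost their call and 7 gained one. None of the called ones changed sign. Leaving out single arrays moved the number of probe sets called higher between 0 and 1625 and lower between 0 and 665, against 1664 and 754 with all arrays. Over the same fits the Skp2 and other member probe sets called higher numbered 0 to 7 and those called lower 0 to 1, and pathway genes called higher numbered 0 to 11 and lower 0 to 1. The cause was not tested beyond the loss of a sample. With 1 probe set per gene, 840 genes were higher and 275 lower, among them 1 of the 9 genes, Skp2, higher and 0 lower, since fewer features are tested and Cdkn1b is then read by its other probe set. With the replicate block, 1891 probe sets were higher and 900 lower, with 2 member probe sets and 2 pathway genes lower, and it lost no call among the 17 but lost 3 of the 9 pathway rises, Cul1, Dtl and Cops5. Centring the arrays on their medians gave 1342 higher and 890 lower probe sets and 5 pathway genes higher. It moved the median log2 difference over all probe sets from 0.01 to -0.05, and the part of that move in the counts was not tested. Quantile normalization gave 1205 and 936 and 6 pathway genes higher. Pathway genes higher also numbered 6 with log2(value + 16). They numbered 6 without cross-hybridising probe sets too, where Cdk4, Ccne1 and Foxm1 were left out with their probe sets and so were not tested. Probe sets under the array medians, those of Cdkn1c, Cdkn2b, one of Cdkn1a and one of Skp2, may read background.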
